A study of Homo sapiens with 16 samples.

Results

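The 41 genes described here are interferon-stimulated genes, a list given by symbol with no cut on a measured value. Earlier results of these data were known when the list was chosen. All 41 symbols were found, each under 1 Ensembl identifier, among the 60676 gene identifiers of the deposited counts. All 41 passed the filter on low counts, which kept 21569 genes for testing.

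RNA was sequenced from 2 human melanoma cell lines, with 8 libraries of A101D and 8 of MeWo. Per the labels, A101D depends on methionine and MeWo does not, which means that homocysteine can stand in for methionine in its medium. Control medium held 200 µM L-methionine and the other medium 200 µM L-homocysteine in its place, each with 5% dialyzed serum, per the labels' protocols. No label says which culture had which medium, so the groups are the line and, within it, the libraries numbered 1 to 4 and those numbered 5 to 8 in the titles. What separates these sets of numbers, if anything, is not given in the sources used here. Nothing in the labels says that the libraries of a line came from separate cultures, so p-values measure the spread between these samples, which may be technical.

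Interferons are secreted proteins that warn cells of infection. They bind receptors that activate the kinases JAK1 and TYK2, and these phosphorylate transcription factors such as STAT2, which with IRF9 binds a sequence called the interferon-stimulated response element near the start of target genes. The targets block viral entry, translation and replication, and many are also transcribed at a lower level without added interferon, in tumour cells as in others.

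The core of that element, GAAA, any 2 bases and GAAA, was searched on both strands in promoter windows of RefSeq (GRCh38.p14) that run from 250 bases before to 50 bases after a start site. Of the 41 genes, 32 had a window and 9 had none (IRF7, IFITM2, MX2, OASL, TRIM22, OAS2, GBP2, IFIT2 and USP18). The letters were present in 27 of 42 windows (64.3%), which belong to 23 genes, against 1255 of all 35116 windows (3.57%). A match describes letters in the window and is not a binding site. The following stretches are shown for genes with large differences or high levels among those with a match, and for IFIT1 and IFIT3 as members of the IFIT family described below. Each runs 5′ to 3′ on the gene's strand upstream of a RefSeq start site, with the matches to this core or to its reverse complement (TTTC, any 2 bases and TTTC) in capitals (neighbouring matches that overlap run together, and a match that the end of a stretch cuts is shown in part).

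BST2: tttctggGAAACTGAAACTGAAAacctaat
IFI27: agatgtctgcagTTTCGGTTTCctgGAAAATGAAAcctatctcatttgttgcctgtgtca
GBP1: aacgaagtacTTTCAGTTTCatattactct
ISG20: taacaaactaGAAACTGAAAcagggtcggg
IFIT1: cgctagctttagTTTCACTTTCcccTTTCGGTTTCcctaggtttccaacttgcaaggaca
IFIT3: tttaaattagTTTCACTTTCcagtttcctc
EPSTI1: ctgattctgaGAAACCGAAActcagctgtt
IFITM3: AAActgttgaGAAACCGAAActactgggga
IFI6: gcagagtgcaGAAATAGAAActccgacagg

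The stretches lie at chr19:17405738-17405767 (minus strand) for BST2, chr14:94110616-94110675 (plus) for IFI27 and chr1:89065316-89065345 (minus) for GBP1. Those of ISG20, IFIT1 and IFIT3 lie on the plus strand at chr15:88638937-88638966, chr10:89392495-89392554 and chr10:89327865-89327894. Those of EPSTI1, IFITM3 and IFI6 lie on the minus strand at chr13:42992272-42992301, chr11:320876-320905 and chr1:27672266-27672295. The stretches of GBP1, ISG20, IFITM3 and IFI27 lie within the GENCODE v29 span of their own gene, since the RefSeq start used is not the outermost annotated one. The 60-base windows around the matches of BST2, GBP1, ISG20 and IFITM3 lie wholly in annotated exons, of the same or of another gene. BST2 carried overlapping matches in 1 run of letters, and IFI27 carried matches on both strands within 1 stretch.

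The A101D libraries held 28910881 to 38961862 counts and the MeWo libraries 31217443 to 38722489. MeWo replicate 2 stood apart with 34471 genes detected, against 30066 to 31433 in the other libraries of that line. Levels below are CPM, counts relative to library sizes that were scaled with TMM factors. Between replicates of 1 line and set, the coefficient of variation had a median of 5.25% to 6.62% over the genes at 2 CPM or more. Of 9 melanocyte lineage and melanoma markers, 6 were higher and 3 lower in MeWo. The pigment genes TYR and TYRP1 were close to absent in A101D (1.52 and 0.901 CPM) and high in MeWo (298 and 2362 CPM). PMEL had 222 and 6643 CPM, and SOX10, a melanocyte lineage factor, differed by a log2 fold change of 0.28 ± 0.04 SE. The 3 lower markers were DCT, S100B and S100A1. DCT, also a pigment gene, had 39862 to 64752 counts per library in A101D and 14133 to 19899 in MeWo. S100B had 16447 to 25754 and 4042 to 5174 counts.

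**Figure D1:**
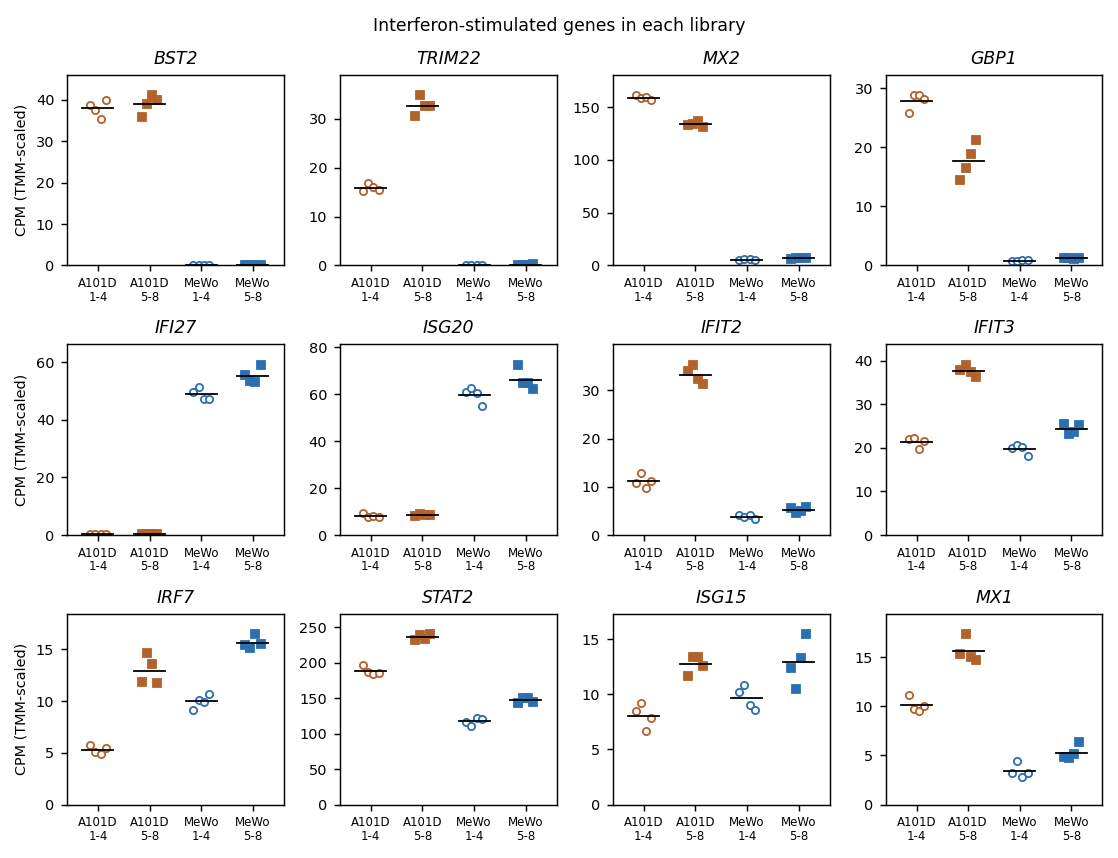
CPM of 12 interferon-stimulated genes (y axis, TMM-scaled, from 0) in each of the 16 libraries, by line and replicate set (x axis). Open circles are replicates 1 to 4, filled squares are replicates 5 to 8, and the black line is the mean of 4 libraries. BST2, TRIM22, MX2 and GBP1 lie near the bottom in all MeWo libraries, IFI27 and ISG20 lie low in all A101D libraries, and IFIT2 and IRF7 separate the sets within both lines.

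Summed over the 41 genes, A101D had 1032 to 1108 CPM over replicates 1 to 4, and 1172 to 1242 CPM over replicates 5 to 8. In MeWo the sum was 661.5 to 734.4 CPM and 790.9 to 819.1 CPM. In bulk RNA, fewer cells with a transcript and less of it per cell cannot be told apart. Per kilobase of exon, the same 3 genes stood highest in both lines. IFITM3, a membrane protein that blocks the fusion of viruses with cell membranes, had 91.2 CPM per kb in A101D and 47.2 in MeWo. IFI6, a small protein of the endoplasmic reticulum, had 37.3 and 45.8 CPM per kb, and STAT2, the transcription factor named above, had 34.7 and 21.6.

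The first comparison set MeWo against A101D. With no further line of either kind, a difference cannot be tied to methionine dependence. In MeWo, 24 of the 41 genes were lower than in A101D and 9 were higher (adjusted p under 0.05, limma), and 8 did not pass. Of all genes tested, 78.2% passed in either direction, 41.4% lower and 36.8% higher in MeWo, so the 58.5% of interferon-stimulated genes called lower is to be read against a high background. The median log2 fold change was -0.38 over the 41 genes and -0.05 over all genes tested. A change over 2-fold was called for 14 lower and 3 higher genes, where 39.7% of all genes tested passed the same rule in either direction. No library of either line lay within the range of the other line for 22 of the 41 genes, 53.7% of them, beside 54.5% of all genes tested. With upper-quartile factors taken over all detected genes, which moved the median of all genes by 0.50, the split became 17 higher and 18 lower. The shares of all genes called higher and lower were not counted with that scaling. The difference between the members' median and that of all genes was -0.325 with either scaling. Other scaling moves all genes of a comparison by nearly the same amount, so this difference could hardly change and is no check on the split.

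The largest differences were those of BST2, TRIM22 and IFI27. Positions come from GENCODE v29 on GRCh38, which annotates the genes named here as protein-coding. BST2 (ENSG00000130303, chromosome 19, 17402939 to 17405648), tetherin, holds budding virus particles at the cell surface. Its level ran from 35.5 to 41.2 CPM in A101D with a median of 38.8, and from 0 to 0.0971 CPM in MeWo with a median of 0.0464. The groups lay far apart, with 10533 counts in A101D and 14 in MeWo, a ratio of 749.5 (exact 95% interval 446.5 to 1371, counting error only). The log2 fold change was -9.41 ± 0.28 SE (adjusted p 1.88e-15, limma). TRIM22 (ENSG00000132274, chromosome 11, 5689689 to 5737089), a ubiquitin ligase that restricts viral transcription, showed the same contrast. It ran from 15.2 to 34.9 CPM in A101D (median 23.7) and from 0 to 0.200 CPM in MeWo (median 0.0324). That is 6768 against 18 counts, a ratio of 374.6 (interval 236.8 to 632.4, counting error only). The log2 fold change of TRIM22 was -8.57 ± 0.79. TRIM22 shares 10.7% of its exon length with OR56B1 on the same strand. Both genes were near the limit of detection in MeWo.

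IFI27 (ENSG00000165949, chromosome 14, 94104836 to 94116698), which encodes a small hydrophobic protein found in mitochondria and at the nuclear membrane, went the other way. It had 0.297 to 0.513 CPM in A101D (median 0.345) and 47.1 to 59.2 CPM in MeWo (median 52.2). Its 103 counts in A101D stood against 14212 in MeWo, a ratio of 138.5 (interval 114.1 to 169.8), and the log2 fold change was 7.08 ± 0.14 (adjusted p 1.34e-17, limma). ISG20, an exonuclease that degrades viral RNA, was the next highest in MeWo, with 54.8 to 72.6 CPM there (median 62.4) and 7.56 to 9.32 CPM in A101D (median 8.24). The log2 fold change of ISG20 was 2.90 ± 0.06. BST2, TRIM22, IFI27 and ISG20 kept their direction and their call between lines in replicates 1 to 4 and in replicates 5 to 8 taken alone.

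Among the MX GTPases, which bind viral nucleoproteins or capsids, both were lower in MeWo. MX2 (chromosome 21, 41361943 to 41409390) had 131 to 162 CPM in A101D (median 147) against 5.46 to 7.36 CPM in MeWo (median 6.15), a log2 fold change of -4.55 ± 0.08 (adjusted p 2.67e-18, limma). MX1 had medians of 12.9 and 4.60 CPM and a log2 fold change of -1.58. Neither gene had overlapping libraries between lines, and MX2, which blocks nuclear entry of HIV, had the larger gap.

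All 3 guanylate-binding and TRIM genes of the list were lower in MeWo. GBP1 (chromosome 1, 89052319 to 89065360), a GTPase that coats intracellular pathogens, had 14.4 to 28.8 CPM in A101D (median 23.4) and 0.732 to 1.20 CPM in MeWo (median 1.05), a log2 fold change of -4.44 ± 0.24. GBP2 (chromosome 1, 89106132 to 89150456), its relative, had 11.95 to 14.99 CPM in A101D (median 14.2) and 1.08 to 1.95 CPM in MeWo (median 1.57), a log2 fold change of -3.15 ± 0.10. GBP2 shares 9.89% of its exon length with GBP7 on the same strand, so part of its counts is uncertain.

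The OAS enzymes make the messenger molecule that activates the nuclease RNase L, and here they did not move as a group. OAS2 (chromosome 12, 112978395 to 113011723) had 7.12 to 12.3 CPM in A101D (median 8.82) and 0.445 to 1.45 CPM in MeWo (median 0.596), a log2 fold change of -3.73 ± 0.22. OAS1 and OASL, the latter an inactive relative that aids RNA sensing, were lower in MeWo by log2 fold changes of -1.20 and -1.76. OAS3 was higher, as A101D libraries had 14.6 to 26.7 CPM and those of MeWo 29.98 to 36.9 CPM, with a log2 fold change of 0.76 (adjusted p 2.78e-05, limma). OAS1, OAS2 and OAS3 lie side by side on chromosome 12, so neighbouring genes differed between lines in opposite directions.

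Of the other membrane factors, IFITM3 was lower in MeWo (log2 fold change -0.95, medians 120 and 63.8 CPM) and IFITM1 was lower at a low level (-2.74, 137 against 19 counts). IFITM2 had medians of 4.15 and 4.21 CPM and did not pass (adjusted p 0.714, limma). IFITM1 and IFITM2 share sequence and 32.5% and 22.7% of their exon length, so reads could have been assigned to either gene.

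The IFIT proteins bind foreign RNA ends and block its translation. IFIT2 (chromosome 10, 89283694 to 89309276) differed most, with 9.66 to 35.4 CPM in A101D (median 22.1) and 3.33 to 5.81 CPM in MeWo (median 4.38), a log2 fold change of -2.12 ± 0.35 (adjusted p 3.05e-05, limma). Its A101D libraries fell into separate levels by replicate set, described below, and the difference between lines was -1.54 in replicates 1 to 4 and -2.68 in replicates 5 to 8. IFIT2 shares 8.68% of its exon length with AL353751.1 on the same strand. IFIT3 was lower by a log2 fold change of -0.38 with overlapping libraries, a call that ended with each of the 4 other scalings and when any 1 of A101D replicates 5 to 8 or MeWo replicates 1 to 4 was left out. IFIT1 and IFIT5 did not pass over all libraries, at -0.19 and -0.22. IFIT5 was lower in replicates 5 to 8 (-0.495, adjusted p 2.59e-13, limma) and gave 0.06 in replicates 1 to 4 (adjusted p 0.242). IFIT1 was lower in replicates 1 to 4 (-0.32, adjusted p 0.0401, limma), a call lost with each of the 4 other scalings, and gave -0.06 in replicates 5 to 8 (adjusted p 0.648).

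Among the transcription factors of the pathway, 2 were lower and 2 higher in MeWo. STAT2 (chromosome 12, 56341597 to 56360155) had 184 to 240 CPM in A101D (median 214) and 110 to 150 CPM in MeWo (median 133), a log2 fold change of -0.68 ± 0.09 (adjusted p 9.69e-07, limma). IRF1, a factor induced by interferon gamma, was lower by a log2 fold change of -0.63, a call that ended with upper-quartile factors over all detected genes. IRF9, the DNA-binding partner of STAT2, was higher by 0.70, and IRF7, which drives interferon alpha transcription, by 0.58. The call of IRF7 ended with total counts, upper-quartile factors or no filter on low counts, and when any 1 of A101D replicates 1 to 4 or MeWo replicates 5 to 8 was left out. Within the sets, IRF7 was higher in MeWo by 0.90 in replicates 1 to 4 (adjusted p 1.02e-11, limma) and by 0.27 in replicates 5 to 8 (adjusted p 0.000286), without overlap. IRF9 shares 48.4% of its exon length with the gene AL136295.5 on the same strand, and IRF1 shares 22.0% with C5orf56 on the opposite strand, so their counts are uncertain.

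PARP9, DTX3L and PARP14, which act in ADP-ribosylation and ubiquitin transfer, were all called lower in MeWo, at -1.25, -0.92 and -0.24. PARP14 was lost with total counts, median-of-ratios or upper-quartile factors and when any 1 of A101D replicates 5 to 8 or MeWo replicates 3 to 5 was left out, and turned positive with upper-quartile factors over all detected genes. In the ISG15 system, ISG15 itself, the ubiquitin-like modifier, had medians of 10.4 and 10.7 CPM and did not pass over all libraries (adjusted p 0.471, limma). In replicates 1 to 4 ISG15 was higher (0.25, adjusted p 0.0351, limma). That call was lost with no filter on low counts and when any 1 of A101D replicates 3 and 4 or MeWo replicates 1 and 2 was left out. In replicates 5 to 8 ISG15 gave 0.01 (adjusted p 0.910). HERC5, the ligase that attaches it, and HERC6 were lower at -0.999 and -0.67 (HERC6 not with upper-quartile factors over all detected genes), and USP18, the protease that removes it, was higher at 0.29.

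IFIH1, the RNA sensor MDA5, did not pass between lines over all libraries (-0.09). It was lower in replicates 1 to 4 (-0.28, adjusted p 0.000366, limma), a call that reversed with 1 other scaling, and gave 0.10 in replicates 5 to 8 (adjusted p 0.169). DDX60 was lower by a small margin (-0.24) that was lost with 3 other scalings, with no filter on low counts and when any 1 of A101D replicates 2 and 5 to 8 or MeWo replicates 1 to 5 was left out, and reversed with upper-quartile factors over all detected genes. SAMHD1, which depletes nucleotides, was lower at -0.28 and also turned positive under that last scaling. SAMHD1 shares 10.3% of its exon length with TLDC2 on the opposite strand. CMPK2, a mitochondrial nucleotide kinase, was higher at 0.79 in all libraries together, with 0.25 in replicates 1 to 4 (adjusted p 0.180) and 1.29 in replicates 5 to 8 (limma). RSAD2, viperin, was near the limit of detection in both lines, with 76 and 73 counts.

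Of the remaining small proteins, IFI44 was higher in MeWo (1.18, medians 4.98 and 10.4 CPM) and IFI6 was higher (0.30). XAF1 (chromosome 17, 6755447 to 6775647), which antagonises inhibitors of apoptosis, had 175 counts in A101D and 5 in MeWo, where 6 of 8 libraries had none. The ratio was 34.9 (interval 14.7 to 108.7, counting error only) and the log2 fold change -4.14 ± 0.88. By set, the log2 fold change was -2.59 in replicates 1 to 4 and -5.58 in replicates 5 to 8. XAF1 shares 38.3% of its exon length with PRAL on the opposite strand. EPSTI1, a protein of uncertain function, was lower in MeWo (-2.09, adjusted p 0.000683, limma), with 137 against 28 counts. The EPSTI1 difference was -0.81 in replicates 1 to 4 (adjusted p 0.0964, not past the threshold) and -3.29 in replicates 5 to 8 (limma).

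**Figure D2:**
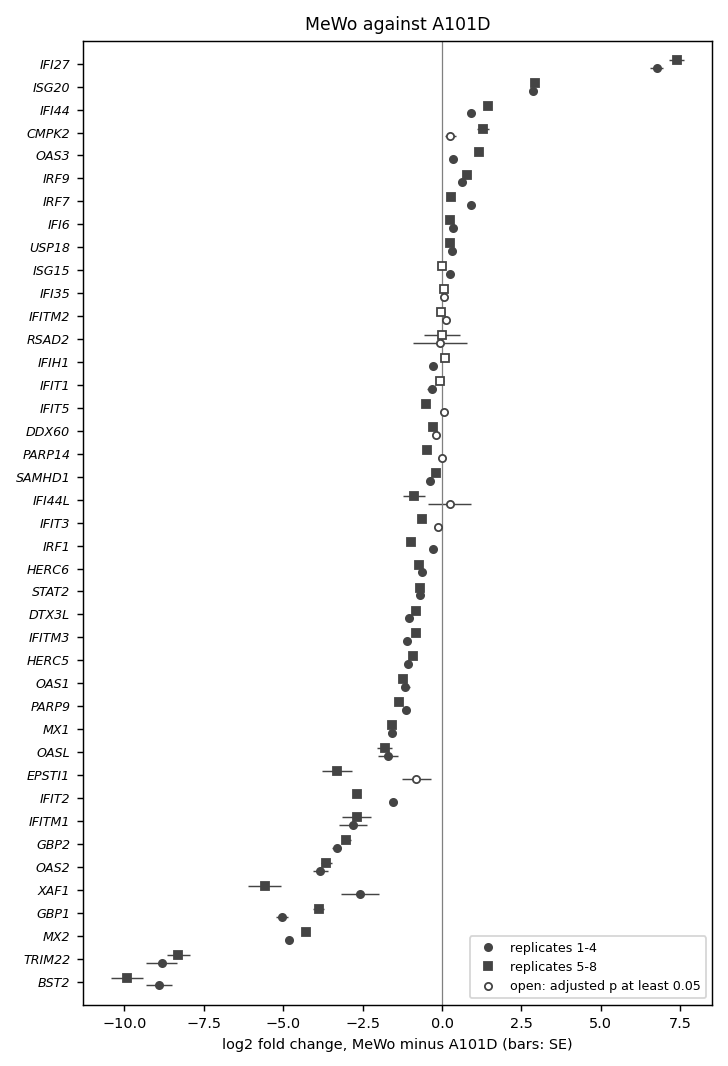
Log2 fold change between lines (x axis, MeWo minus A101D) for each of the 41 genes (y axis), with bars for the SE. Circles are replicates 1 to 4, squares are replicates 5 to 8, and open symbols did not pass an adjusted p of 0.05 (limma). BST2 and TRIM22 lie beyond -8 in both sets and IFI27 beyond 6, and XAF1 and EPSTI1 sit further left in replicates 5 to 8 than in replicates 1 to 4.

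Within replicates 1 to 4, 9 genes were higher and 22 lower in MeWo, where 79.1% of all genes tested passed, 35.8% higher and 43.3% lower. Within replicates 5 to 8, 9 were higher and 26 lower, where 84.1% of all genes passed, 40.5% higher and 43.5% lower. Over 2-fold, 2 genes were higher and 16 lower in replicates 1 to 4, beside 37.4% of all genes in either direction, and 5 were higher and 14 lower in replicates 5 to 8, beside 44.8%. Libraries did not overlap for 28 genes (68.3%) in replicates 1 to 4 and 33 (80.5%) in replicates 5 to 8, where 72.1% and 79.0% of all genes did not. Both sets gave the same call for 28 of the 41 genes, and no gene had opposite calls. Same and opposite calls were not counted over all genes tested, so no background stands beside them. The plot of fold changes between lines shows both sets side by side.

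A further comparison set replicates 5 to 8 against replicates 1 to 4 in each line. In A101D, 23 of the 41 genes were higher in replicates 5 to 8, 6 were lower and 12 did not pass (adjusted p under 0.05, limma). Across all genes tested, 65.3% passed, 29.6% higher and 35.8% lower, beside 56.1% and 14.6% of the interferon-stimulated genes. The libraries did not overlap for 28 genes (68.3%), against 59.9% of all genes. In MeWo, 20 of the 41 genes were higher in replicates 5 to 8, none was lower and 21 did not pass. There the background was small, with 13.1% of all genes past the threshold, 4.59% higher and 8.51% lower, beside 48.8% and 0% of the interferon-stimulated genes. The libraries did not overlap for 21 genes (51.2%), against 14.3% of all genes tested. At an unadjusted p under 0.05, 26 genes were higher in MeWo and 0 lower with voom weights, and 2 were lower with limma-trend. All genes were not counted at an unadjusted p, so the shares above, at an adjusted p, are no background for these counts.

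Markers of other cell types moved with the replicate sets in A101D. Summed over 18 such markers, A101D libraries reached 7.774 to 10.2 CPM within replicates 1 to 4 and 23.18 to 30.61 CPM within replicates 5 to 8, while MeWo libraries reached 2.399 to 3.572 CPM. Of these, 7 were tested and 6 were higher in A101D replicates 5 to 8 (85.7%, beside 29.6% of all genes). VWF led in level, with 491 counts in replicates 1 to 4 and 2242 in replicates 5 to 8. The myeloid markers ITGAM and CD163 had 404 and 5 counts, then 800 and 103. CSF1R, also a myeloid marker, had 128 and then 186, with libraries that overlapped between sets. The endothelial marker CDH5 had 49 and then 153, and the keratinocyte marker KRT14 had 78 and then 275. The defining leukocyte marker PTPRC had 10 and 24 counts in those sets and 9 and 9 in MeWo, and the T cell marker CD3E had 1 and 12 in A101D. CD2 and CD3D had 0 counts in A101D replicates 1 to 4, and 1 and 2 in replicates 5 to 8. The part of this in the A101D differences was not tested. In MeWo 0 of the 7 markers passed between replicate sets, where 13.1% of all genes did.

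The changes in MeWo were small in size. The median log2 fold change was 0.29 over the 41 genes in MeWo and 0.41 in A101D, against -0.02 and -0.05 over all genes tested. A change over 2-fold was called for 7 genes in A101D and 1 in MeWo, where 16.7% and 0.644% of all genes passed that rule. Of the 23 genes higher in A101D, 14 were also higher in MeWo, and these are 14 of the 20 higher in MeWo. The fold change was above 0 for 34 of the 41 genes in MeWo and for 29 in A101D. Neither calls shared by both lines nor signs were counted over all genes tested, so these counts have no background to be read against. The count in MeWo depends on the genes tested and on the threshold, with 11 higher when no filter on low counts was used and 13 at an adjusted p under 0.01. Leaving out 1 library at a time gave 15 to 21 calls. The share of all genes that passed with these settings is not given here.

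**Figure D3:**
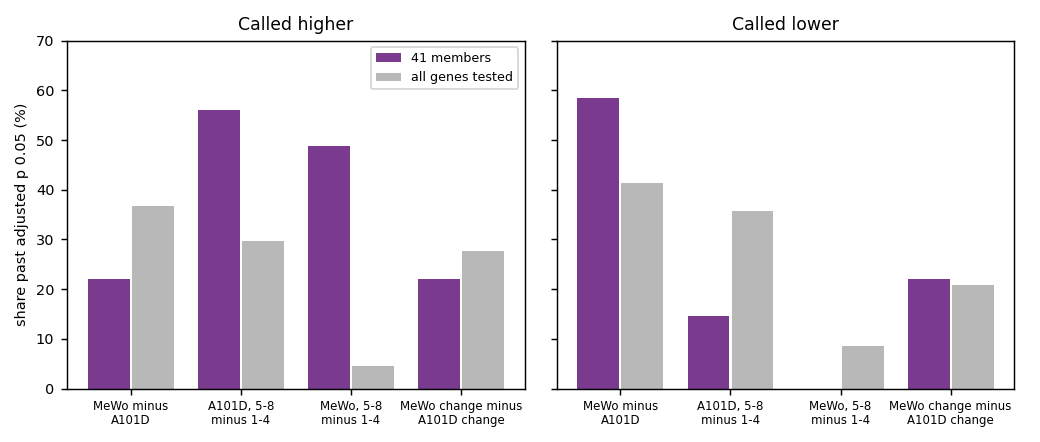
Share of genes past an adjusted p of 0.05 (y axis, %, limma) in 4 comparisons (x axis), called higher (left) and lower (right), for the 41 interferon-stimulated genes (purple) and all 21569 genes tested (grey). In MeWo replicates 5 to 8 against 1 to 4 the shares called higher were 48.8% and 4.59%, and between lines the shares called lower were 58.5% and 41.4%.

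All 4 transcription factors were higher in A101D replicates 5 to 8, and 3 of 4 were in MeWo. STAT2 had 197, 187, 184 and 185 CPM in A101D replicates 1 to 4 and 232, 239, 233 and 240 CPM in replicates 5 to 8. In MeWo it had 117, 110, 122 and 120 CPM, then 144, 150, 150 and 144 CPM. The sets did not overlap in either line, and the log2 fold change was 0.33 ± 0.04 in both (adjusted p 9.77e-11 in A101D and 6.27e-08 in MeWo, limma).

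IRF7 (chromosome 11, 612553 to 615999) showed a larger difference. Its level was 5.76, 5.09, 4.90 and 5.49 CPM in A101D replicates 1 to 4 and 11.8, 14.6, 13.6 and 11.8 CPM in replicates 5 to 8, a log2 fold change of 1.28 ± 0.09 (adjusted p 1.03e-16, limma). MeWo had 9.19, 10.1, 9.88 and 10.7 CPM, then 15.4, 15.1, 16.5 and 15.5 CPM, a log2 fold change of 0.65 ± 0.07 (adjusted p 2.56e-08). The sets did not overlap in either line. IRF9 was higher in both lines by 0.43 and 0.58, and IRF1 was higher in A101D by 0.61 and gave -0.07 in MeWo (adjusted p 0.670).

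All 4 IFIT genes were higher in A101D replicates 5 to 8, led by IFIT2. Its CPM values were 10.7, 12.9, 9.66 and 11.2 in A101D replicates 1 to 4 and 34.1, 35.4, 32.4 and 31.2 in replicates 5 to 8, a log2 fold change of 1.58 ± 0.07 (adjusted p 7.82e-24, limma). In MeWo IFIT2 had 4.10, 3.66, 4.22 and 3.33 CPM, then 5.51, 4.54, 4.98 and 5.81 CPM, a log2 fold change of 0.45 ± 0.12 (adjusted p 0.00749, limma), which did not pass with no filter on low counts. IFIT1 was higher by 0.42 and 0.69 and IFIT3 by 0.82 and 0.31, without overlap between sets in either line. IFIT5, by 0.68 in A101D, gave 0.12 in MeWo (adjusted p 0.102).

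The antiviral enzymes were mixed. MX1 was higher in both lines, by 0.62 and 0.65, and OAS1 by 0.58 and 0.49. The MeWo call of OAS1 was lost with no filter on low counts and when any 1 of MeWo replicates 3, 4, 6 and 8 was left out. MX2 was lower in A101D replicates 5 to 8, with 157 to 162 CPM in replicates 1 to 4 and 131 to 137 CPM in replicates 5 to 8, and higher in MeWo, with 5.46 to 5.75 and 6.55 to 7.36 CPM. The MeWo call of MX2 was lost with upper-quartile factors over all detected genes, with no filter on low counts and without MeWo replicate 6. OAS3 was also lower in A101D and higher in MeWo, at -0.70 in A101D (24.97 to 26.7 against 14.6 to 17.3 CPM) and 0.14 in MeWo (29.98 to 34.5 against 36.0 to 36.9 CPM). The MeWo call of OAS3 had an adjusted p of 0.0490 in limma and was lost with median-of-ratios factors, upper-quartile factors over all detected genes, no filter on low counts and limma-trend, and when any 1 of A101D replicates 1, 2, 3, 4, 6 and 7 or MeWo replicates 3 to 8 was left out. OAS2 was higher in A101D by 0.54 and OASL by 1.08, where OASL had 0.784, 0.795, 0.799 and 0.610 CPM and then 1.502, 1.70, 1.86 and 1.32 CPM. In MeWo OAS2 (0.73, adjusted p 0.0699) and OASL (0.96, adjusted p 0.0513) did not pass.

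GBP1 was lower in A101D replicates 5 to 8. It had 25.7, 28.8, 28.8 and 28.2 CPM, then 14.4, 16.5, 18.8 and 21.2 CPM, a log2 fold change of -0.66 ± 0.07 (adjusted p 4.53e-11, limma). In MeWo it had 0.732 to 0.953 CPM, then 1.14 to 1.20 CPM, a log2 fold change of 0.50 that did not pass (adjusted p 0.208). TRIM22 was higher in A101D replicates 5 to 8, from 15.2, 16.8, 16.1 and 15.4 CPM to 30.6, 34.9, 32.7 and 32.7 CPM (1.05 ± 0.06, adjusted p 5.46e-20). Its 18 counts in MeWo gave 1.57 ± 0.62 (adjusted p 0.0860). GBP2 passed in neither line.

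BST2, the gene with the largest gap between lines, overlapped between the sets of A101D, where replicates 1 to 4 had 35.5 to 40.1 CPM and replicates 5 to 8 had 36.0 to 41.2 CPM, a log2 fold change of 0.04 (adjusted p 0.508, limma). IFITM3 was lower in A101D replicates 5 to 8, from 143, 131, 128 and 139 CPM to 105, 112, 112 and 112 CPM (-0.29 ± 0.05, adjusted p 3.58e-07). In MeWo it had 58.0 to 69.0 and 59.3 to 69.5 CPM, which overlap. None of the 4 membrane factors passed in MeWo. IFITM3 shares 21.3% of its exon length with AC136475.5 on the opposite strand.

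XAF1 and IFI44L, both at low counts, had the largest fold changes of the 41 genes between sets in A101D. XAF1 had 5, 5, 3 and 3 counts in A101D replicates 1 to 4 and 40, 47, 39 and 33 counts in replicates 5 to 8, a log2 fold change of 3.01 ± 0.37 (adjusted p 1.45e-09, limma). IFI44L had 4, 10, 2 and 6 counts, then 30, 56, 42 and 42 counts in A101D (2.83 ± 0.54, adjusted p 5.99e-05). In MeWo, IFI44L had 1, 21, 7 and 7 counts, then 16, 14, 18 and 50 counts, which overlap (1.70 ± 0.54, adjusted p 0.0372). Without MeWo replicate 1 that value fell to 0.96 (adjusted p 0.157, limma), and the call was also lost with no filter on low counts, with limma-trend and when any 1 of A101D replicates 1 and 7 or MeWo replicates 3, 4, 5, 7 and 8 was left out.

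EPSTI1 had 12, 8, 9 and 4 counts in A101D replicates 1 to 4 and 27, 40, 17 and 20 counts in replicates 5 to 8 (1.46 ± 0.34, adjusted p 0.000215, limma). In MeWo its 28 counts gave -1.02 ± 0.56 (adjusted p 0.250). RSAD2 ran from 1 to 9 counts and then from 6 to 32 in A101D (1.42, adjusted p 0.0949) and passed in neither line.

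IFI6 was higher in A101D replicates 5 to 8 by 0.32 and gave 0.25 in MeWo (adjusted p 0.0507, limma). IFI35, a small nuclear and cytosolic protein, was higher in both lines by 0.19, in MeWo not with upper-quartile factors over all detected genes. IFI27 and IFI44 were higher in MeWo replicates 5 to 8 by 0.18 and 0.32 and did not pass in A101D. The MeWo call of IFI27 was lost with upper-quartile factors over all detected genes and with limma-trend, and that of IFI44 with no filter on low counts, with limma-trend and without MeWo replicate 8. IFI27 had 47.1 to 51.3 CPM in MeWo replicates 1 to 4 and 53.1 to 59.2 CPM in replicates 5 to 8.

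Of the ISG15 system, ISG15 was higher in both lines. It had 8.51, 9.22, 6.72 and 7.87 CPM, then 11.7, 13.4, 13.4 and 12.5 CPM in A101D (0.66 ± 0.10, adjusted p 6.74e-07, limma). In MeWo it had 10.2, 10.8, 9.02 and 8.58 CPM, then 12.4, 10.5, 13.3 and 15.5 CPM (0.42 ± 0.10, adjusted p 0.00272). HERC6 was higher in both lines by 0.43 and 0.33, in MeWo not with no filter on low counts or without MeWo replicate 6, and HERC5 and USP18 passed in neither. PARP9 was higher in both lines by 0.54 and 0.30, PARP14 in A101D by 0.54, and DTX3L in neither. Of the sensors, DDX60 was higher in both lines by 0.41 and 0.29, and its MeWo call was lost with upper-quartile factors over all detected genes, with no filter on low counts and when any 1 of MeWo replicates 2, 3, 4, 6, 7 and 8 was left out. IFIH1 was higher in MeWo by 0.29 and gave -0.09 in A101D. CMPK2 and SAMHD1 were lower in A101D, at -0.96 and -0.22, the second of these no longer with total counts or upper-quartile factors.

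**Figure D4:**
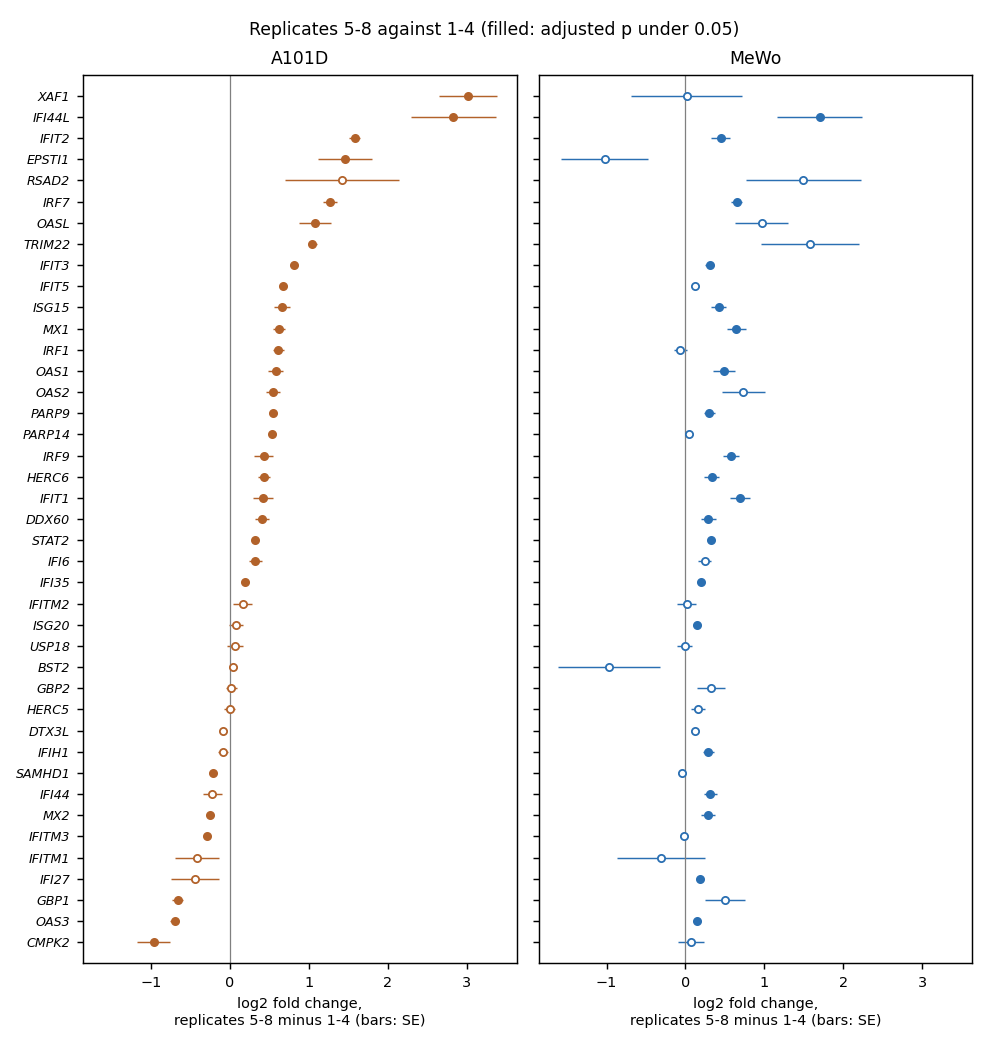
Log2 fold change of replicates 5 to 8 against 1 to 4 (x axis) for each of the 41 genes (y axis, ordered by the A101D value) in A101D (left) and MeWo (right), with bars for the SE and filled points past an adjusted p of 0.05 (limma). In A101D 23 filled points lie right of 0 and 6 left of it, and in MeWo all 20 filled points lie right of 0.

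The difference between the lines in the change from replicates 1 to 4 to replicates 5 to 8 was tested with an interaction term. It passed for 18 of the 41 genes, 9 with a more positive change in MeWo and 9 with a more positive change in A101D. Of all genes tested 48.5% passed, 27.6% and 20.8% in those directions. IFIT2 differed by -1.14 ± 0.14 (adjusted p 1.89e-09, limma), IFIT5 by -0.56 and IFIT3 by -0.51, with the larger change in A101D. IRF1 differed by -0.68, IRF7 by -0.63 and PARP14 by -0.49, also larger in A101D. OAS3 (0.84 ± 0.08, adjusted p 1.59e-12), CMPK2 (1.03), GBP1 (1.16), MX2 (0.54) and IFITM3 (0.28) had the more positive change in MeWo. STAT2 gave -0.00088 ± 0.05, MX1 0.02 ± 0.15 and OAS1 -0.09 ± 0.17, which did not pass. The test against a 2-fold difference (treat in limma) called none of the 41 genes, with 2 at an unadjusted p under 0.05.

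The calls were also counted with and without the letters of the response element. Of the 23 genes with that core in a promoter window, 12 were higher in MeWo replicates 5 to 8, and of the 9 genes with a window but no match, 5 were. In A101D, 11 of the 23 were higher and 3 lower, and 7 of the 9 were higher and 2 lower. Between lines, 5 of the 23 were higher and 12 lower in MeWo, and 2 of the 9 were higher and 6 lower. Genes with no window, among them IFIT2, MX2, TRIM22 and IRF7, are in neither group. Calls with and without a match were not counted over all genes tested, so these counts have no background. The groups are small and the difference between them was not tested, so the counts do not show whether the response element had a part.

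The interferon ligands were near absent. None of the 21 listed reached the filter, and 7 had no count in any library. The 19 ligands other than IFNE and IFNK, among them the listed alpha interferons, IFNB1 and IFNG, had 26 counts in all 16 libraries together, 20 in A101D and 6 in MeWo, and at most 7 for 1 gene. IFNE had 31 counts in A101D and 15 in MeWo, and IFNK had 21 and 26. At these counts no ligand was compared between groups.

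Of the 11 receptors, kinases and STAT proteins, 10 were tested. Between lines, 3 were higher and 5 lower in MeWo (80% of those tested, beside 78.2% of all genes). IFNAR2, a chain of the receptor for type I interferons, was lower at a log2 fold change of -0.94 and JAK2 at -0.85, and the receptor chain IFNGR1 and the kinase TYK2 were higher at 0.89 and 0.63. Between replicate sets, 1 was higher and 5 lower in A101D, and 0 were higher and 1 was lower in MeWo. These are 60% and 10% of those tested, beside 65.3% and 13.1% of all genes.

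Of the 16 sensors and adaptors, 15 were tested, with 4 higher and 6 lower in MeWo (66.7%, beside 78.2% of all genes). IRF5 was higher (4.26), and AIM2 (-3.84), RIGI, the RNA sensor RIG-I (-2.89), and STING1, the adaptor of cytosolic DNA sensing (-2.77), were lower. Between replicate sets 4 were higher and 8 lower in A101D, and 4 were higher and 2 lower in MeWo (80% and 40%, beside 65.3% and 13.1% of all genes). TLR3, a receptor for double-stranded RNA, was higher in A101D replicates 5 to 8 by 1.78 and STING1 by 0.64, and CGAS, the cytosolic DNA sensor, and AIM2 were lower at -0.71 and -0.66. In MeWo RIGI was higher by 0.54, STING1 by 0.39 and DHX58 by 0.38, and TRAF3 was lower at -0.28.

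Among 11 inhibitors of the pathway, 5 were higher and 5 lower in MeWo (90.9%, beside 78.2% of all genes), with CISH at 3.49, TRIM24 at -1.95, SOCS3 at 1.58 and SOCS1 at -1.43. In A101D replicates 5 to 8, 1 was higher and 7 were lower, and in MeWo 0 were higher and 2 lower (72.7% and 18.2%, beside 65.3% and 13.1% of all genes). A second list of 35 interferon-induced genes, of which 32 were tested, had 8 higher and 17 lower in MeWo (78.1%, beside 78.2% of all genes). APOL1 (-6.62), GBP4 (-5.39), RTP4 (-4.94) and CXCL9 (-4.74) led the lower genes. Between replicate sets this second list had 11 higher and 11 lower in A101D, and 8 higher and 1 lower in MeWo (68.8% and 28.1%, beside 65.3% and 13.1% of all genes). Of the 4 with the largest change in A101D, CXCL11, a chemokine with 121 counts in that line, gave 4.07, SAMD9L 1.92, TRIM38 1.20 and GBP4 0.90.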

How the data were processed

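Total RNA-seq counts of 16 libraries, 8 of A101D and 8 of MeWo, were used. The authors deposited 1 table per line of whole-number read counts per gene, counted over exons of a sorted alignment, per the file headers. These deposited counts carry no normalization, and each cell joins an Ensembl identifier and its count, which were separated. Trimmomatic 0.39-1, STAR 2.7.1a, featureCounts 2.0.0 and GRCh38 are named in the submitters' processing notes. Which annotation release and strand setting were used is not given in the sources used here, so reads of overlapping or antisense genes could have gone to either gene.

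Library sizes were scaled with TMM factors (trims of 30% and 5%). Genes were tested at 0.298 CPM (10 counts at the median depth) in 4 or more libraries and with a total of 15 counts or more. The tests used limma 3.58.1 (R 4.3.3), voom and robust moderated variances. Benjamini-Hochberg adjustment ran over all 21569 genes, with a threshold of 0.05. The lines were compared over all 16 libraries, and the replicate sets in 1 fit of 4 groups. A quasi-likelihood count test was not run. This was a choice made because identifier and count share a deposited cell, and not a limit of the separated whole-number counts. Levels per kb use the exon length of GENCODE v29. Intervals of count ratios are exact at 95% and cover counting error only.

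The gene list, the pathway lists and the replicate sets were chosen with earlier results of these data known. Values in full are given for the 8 genes with the largest change between lines, the 8 with the largest change between sets in either line and the 3 highest per length in each line. Others are given by role, and from pathway lists the largest changes. Genes added to these after their values were seen are ISG20, MX1, OAS3 and ISG15. Tested on simulated counts, the line comparison recovered 98% of 200 genes changed 2-fold among 20505, and the MeWo set comparison 93% among 21447. Of the calls, 3.92% and 4.62% were false. The simulation used 1 fixed spread and few changed genes. In the data far more genes differed between lines and most MeWo set changes were below 2-fold, so these shares do not carry over to the calls above. Alternatives were other scalings, filters, thresholds and tests, a replicate block and leaving out each library. One gene of the pathway lists is not reported here by name.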

Additional observations from a re-analysis of the deposited data

Results flagged for a closer look

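In 7 of the genes with values in full, the change from replicates 1 to 4 to replicates 5 to 8 differed between the lines by the interaction test in limma. As the MeWo change minus the A101D change on the log2 scale, it was 0.54 for MX2 (adjusted p 3.12e-06), 1.16 for GBP1 (adjusted p 0.000283) and 0.28 for IFITM3 (adjusted p 0.000611). It was -3.00 for XAF1 (adjusted p 0.00158), -2.48 for EPSTI1 (adjusted p 0.0014), -1.14 for IFIT2 (adjusted p 1.89e-09) and -0.63 for IRF7 (adjusted p 1.09e-05), with adjusted values from limma. XAF1 and EPSTI1 rest on 5 and 28 counts in MeWo.

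A single library stood apart from the others, by its gap as a share of the group's range, in 6 of 81 groups checked. Chance alone gives about 1 in 20, or 4.05 groups. In A101D replicates 5 to 8, replicate 7 had 0.372 CPM of IFI27, above the other libraries, but by few counts (13, beside 10, 12 and 11). In the same set, replicate 5 lay below the others for IFITM3, at 105 CPM, and for IFI6, at 30.8 CPM. OASL had 0.61 CPM in A101D replicate 4, the lowest of replicates 1 to 4, also at few counts (20, beside 29, 25 and 22). MeWo replicate 8 lay above the rest of its line for OAS2, at 1.45 CPM, and above replicates 5 to 7 for IFI44L, at 1.25 CPM.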

How the results depend on the processing

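Each count of genes past the threshold was recomputed under 25 or 26 alternatives. When limma's treat tested for changes beyond 2-fold, the counts were 12 between lines, 12 in replicates 1 to 4, 18 in replicates 5 to 8, 4 between A101D sets, 0 between MeWo sets (0 at an unadjusted p under 0.05) and 0 for the difference between lines (2 at an unadjusted p under 0.05). Between MeWo sets the count was 11 with no filter on low counts and 13 at an adjusted p under 0.01. Leaving out 1 library at a time gave 29 to 33 calls between lines, 30 to 31 in replicates 1 to 4, 33 to 35 in replicates 5 to 8, 28 to 30 between A101D sets, 15 to 21 between MeWo sets and 16 to 19 for the difference. Without MeWo replicate 2, the MeWo sets gave 21. Single genes were followed in 18 results, taken from the largest changes and only where the main fit had passed, so this choice favours calls that last. Of their 447 recomputed values, 429 stayed past the threshold, 18 did not, and 0 reversed. IFI44L between MeWo sets accounts for 12 of the 18 values that did not, and the cause was not tested. Outside this choice calls were less stable, and those of DDX60, PARP14 and SAMHD1 between lines reversed with upper-quartile factors over all detected genes. Total counts and upper-quartile factors moved the median of all genes between A101D sets by 0.161 and 0.137, and upper-quartile factors over all detected genes, an alternative chosen after seeing the data, moved that between lines by 0.496, with 19 higher and 17 lower in replicates 1 to 4 and 16 and 21 in replicates 5 to 8. Replicate numbers were not taken to pair the samples, since no label says so and the same-numbered libraries did not all deviate together. Their deviations correlated at 0.056 for replicate 5 and 0.117 to 0.217 for the others around the line means, and at -0.0528 to 0.15 around the means of line and replicate set, and not every library matched its own number best. With a replicate block the counts were 34 between lines, 30 in replicates 1 to 4, 35 in replicates 5 to 8 and 19 for the difference. The block added IFIT5 between lines and IFI44L for the difference, and lost IFIT1 in replicates 1 to 4. Sets within 1 line hold different replicate numbers and could not be blocked. Genes at few counts, such as RSAD2 and XAF1, limit what depth can show.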
